A study of Oryza sativa with 8 samples.

Results

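Plasma membrane aquaporins (PIPs) are the channel proteins that let water cross the outer membrane of plant cells. The genes described here are those whose symbol or synonym in the RefSeq gene table is PIP1-1 to PIP1-3 or PIP2-1 to PIP2-7 and that have a probe set paired with no other gene. Of the 10 names, 9 genes had such probe sets, 12 probe sets in all, out of 17905 genes with a probe set on the array, and PIP2-3 was not analysed here. All 12 probe sets passed the filter on low values, a mean over the 8 arrays of at least 2.23 on the log2 scale.

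Affymetrix rice GeneChips measured transcript levels in shoots, the aerial tissue, of plants 14 days of age. M202, labelled as lacking Sub1A, is a japonica cultivar that does not tolerate submergence. M202(Sub1) is M202 with the introgressed SUB1 region and is labelled as carrying Sub1A, an ethylene response factor gene, so other genes of that region go with Sub1A in every comparison of the genotypes. Each genotype was taken non-submerged, at day 0, and after 24 h fully under water, at day 1, with 2 arrays in each of the 4 groups. All plants were grown in soil in pots of 25 in a greenhouse at 30 °C. Per the labels' protocols the water was 90 cm deep and submergence began at 1 PM. Day of age goes together with submergence, and no source used here gives the hour at which the non-submerged plants were harvested. The labels call the replicates biological without saying what separated them, so p-values measure the spread between these samples.

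The PIP family has a PIP1 and a PIP2 subgroup. PIP2 proteins usually conduct water by themselves, while many PIP1 proteins reach the plasma membrane, as shown in maize, only when they assemble with a PIP2 partner. In Arabidopsis the pores close when the cytosol turns acid, as it does when oxygen runs short in flooded tissue. Transcript levels, the quantity measured here, are a further layer, and say nothing by themselves of channel opening.

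The values are the authors' log2 expression levels, and 2.22 is the lowest level, or floor, of every array. Replicate arrays correlated at r = 0.9976 to 0.9983 across tested probe sets. Changes are differences of log2 group means with the standard error (SE) from a limma fit across 34355 probe sets, n = 2 arrays per group, and a call is a limma adjusted p below 0.05. A change of 1 is a doubling. On the deposited scale the median change of all probe sets with submergence was 0 in both genotypes. On a second scale, called the spike-in scale here, each array was centred on its poly(A) controls, bacterial RNAs added before labelling. There the median was -0.20 in M202 and -0.38 in M202(Sub1). Changes below are on the deposited scale unless the spike-in scale is named. Where 1 array was left out, its group had 1 array, whose spread was taken to be that of the other groups, so a call gained by leaving out an array of a more variable pair is no firmer than the fit to all arrays. In these tissue samples fewer cells of a type and less RNA per cell cannot be told apart.

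The tissue was checked with marker genes. The green leaf list, 5 of 14 names with a probe set, held the Rubisco small subunit gene RBCS, whose brightest probe set had group means of 16.51 to 16.59. The mean of the list's 12 probe sets was 13.70 to 13.77 on non-submerged M202 arrays and 13.15 to 13.18 on submerged ones. In M202(Sub1) it was 13.68 to 13.77 and 12.99 to 13.10. With submergence 7 of the 12 were called lower in each genotype and 5 were not called, all those of RBCS among them. Lower calls made up 20% of all probe sets in M202 and 21.2% in M202(Sub1). CHLI had the largest change of this list, -2.90 ± 0.16 in M202 and -3.09 ± 0.16 in M202(Sub1). Of 8 root names, 5 had a probe set. LSI2, a silicon exporter of roots, was at the floor on every array, while LSI1, a silicon channel best known from roots, had group means of 9.50 to 10.18. The root list's mean was 6.19 on both non-submerged M202 arrays and 5.65 to 5.72 on submerged ones, and 6.04 to 6.10 and 5.13 to 5.14 in M202(Sub1). Of 6 seed endosperm names, 3 had a probe set. The storage protein gene GLUA-1 was at the floor on every array, but GLB1, a storage globulin gene, had group means of 10.75 to 12.09 and 1 of 2 GLUA-2 probe sets had 8.99 to 9.56. Both rose with submergence in each genotype, GLB1 by 1.19 ± 0.05 in M202 and 1.32 ± 0.05 in M202(Sub1) (limma adjusted p = 4.69e-05 and 2.56e-05). The endosperm list's mean was 6.10 on both non-submerged M202 arrays and 6.50 to 6.54 on submerged ones, and 6.07 to 6.13 and 6.53 to 6.68 in M202(Sub1). The means of all 3 lists thus moved with submergence, but their members did not all move alike. In M202 the root list's LSI1 changed by 0.20 ± 0.04 and its NAAT1 by -2.27 ± 0.13 (limma adjusted p = 0.0135 and 0.000112). The same genes had -0.56 ± 0.04 and -3.12 ± 0.13 in M202(Sub1) (limma adjusted p = 0.000213 and 3.01e-05). The part of the 3 lists in the PIP results was not tested.

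Most PIP transcripts were lower after submergence in M202. Of the 12 probe sets, 9 fell and 1 rose, which makes 7 genes lower and PIP2-6 higher, and 2 probe sets were not called. Falls of at least 2-fold were seen in 6 probe sets of 5 genes. Across all probe sets 42.9% were called, 22.9% as higher and 20% as lower, and 9.34% were called lower by 2-fold or more. The median change of the PIP probe sets was -1.21, against 0 for all probe sets. The filter of 2.23 lies just above the floor of 2.22, so all probe sets include dim ones with little room to fall. Shares and medians of all probe sets, here and below, were not matched to the PIPs in brightness. On all 12 PIP probe sets the 2 submerged arrays lay wholly to one side of the 2 non-submerged ones, which also held for 62.9% of all probe sets.

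The M202(Sub1) plants showed 7 lower PIP probe sets, of 6 genes, and 2 higher ones, PIP2-6 and PIP2-5, while 3 were not called. The small rise of PIP2-5 did not hold under most alternatives. Falls of at least 2-fold were made by 5 probe sets of 4 genes. Over all probe sets 48.9% were called, 27.7% as higher and 21.2% as lower, and 11.3% were called lower by 2-fold or more. The PIP median was -0.30, against 0 for all. A median of 12 values rests on the 2 in the middle. These were -1.92 (PIP2-7) and -0.51 (PIP1-1) in M202, and -0.31 (PIP1-1) and -0.29 (probe set b of PIP2-1) in M202(Sub1). PIP2-5 lay below the median in M202 and above it in M202(Sub1). The gap between the 2 medians is thus no measure of how deep the falls were. Again the groups did not overlap on any of the 12 PIP probe sets, as on 65.8% of all. On the spike-in scale 10 PIP probe sets were lower and 1 higher in each genotype, where 40.5% of all probe sets were lower and 18.4% higher in M202, and 60% lower and 18.8% higher in M202(Sub1).

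**Figure D1:**
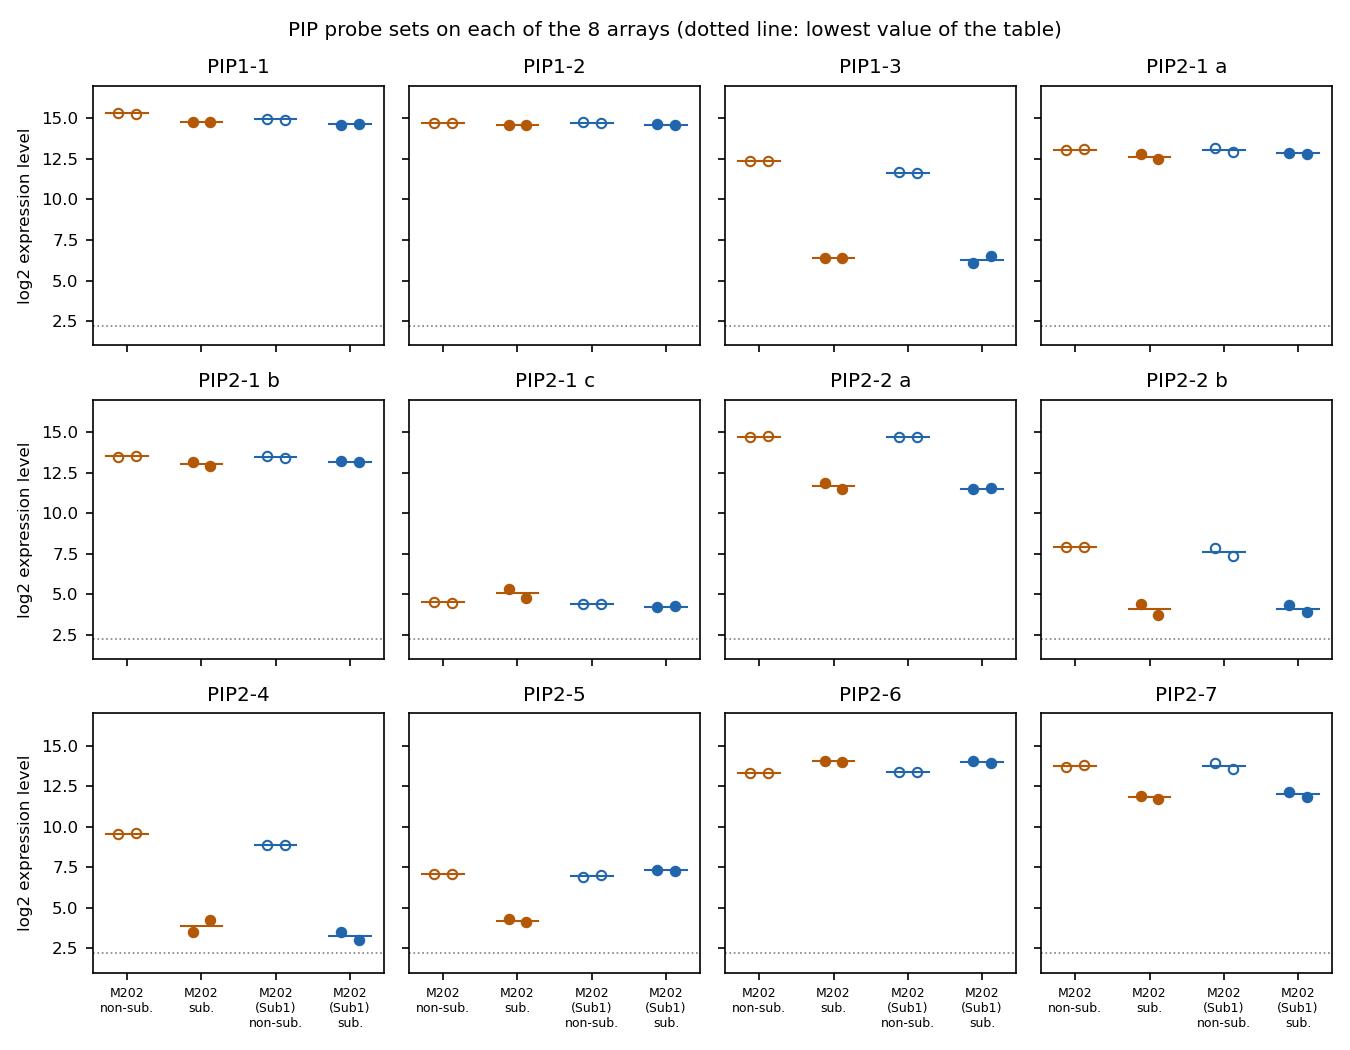
Log2 expression level (vertical axis) of each PIP probe set on the 8 arrays, in M202 (orange) and M202(Sub1) (blue), non-submerged (non-sub., open circles) and submerged (sub., filled circles). Short lines are group means and the dotted line is the table's lowest value, 2.22. PIP1-3, PIP2-2, PIP2-4 and PIP2-7 drop in both genotypes, while PIP2-5 drops in M202 and lies between 7.27 and 7.36 in submerged M202(Sub1).

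PIP1-3, also named RWC3 and known in rice as a water channel gene tied to drought responses, fell deeply in both genotypes. Its probe set read 12.37 and 12.38 in non-submerged M202 and 6.38 and 6.37 after submergence. The M202(Sub1) arrays had 11.67 and 11.66 before submergence and 6.08 and 6.48 after. The submerged arrays of both genotypes lay together, far below the non-submerged ones. The change was -6.00 ± 0.13 in M202 (SE, n = 2 per group; limma adjusted p = 6.32e-06), a 64.0-fold decrease, and -5.38 ± 0.13 in M202(Sub1) (limma adjusted p = 6.53e-06), a 41.6-fold decrease.

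PIP1-1, a PIP1 channel gene also named RWC1, moved far less. It had 15.33 and 15.29 in non-submerged M202 against 14.81 and 14.80 in submerged M202. In M202(Sub1) the values were 14.97 and 14.93 before and 14.60 and 14.68 after. The changes, -0.51 ± 0.04 in M202 (limma adjusted p = 0.000242) and -0.31 ± 0.04 in M202(Sub1) (limma adjusted p = 0.00122), were small but larger than the spread between arrays.

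PIP1-2, the third PIP1 gene, was at 14.71 and 14.74 in non-submerged M202 and 14.61 and 14.57 in submerged M202. Its M202(Sub1) values were 14.79 and 14.70, and then 14.65 and 14.58, so the groups lay close but did not overlap. Neither difference was called, with -0.14 ± 0.05 in M202 (95% interval -0.25 to -0.02; limma adjusted p = 0.0689) and -0.13 ± 0.05 in M202(Sub1) (-0.25 to -0.02; limma adjusted p = 0.0662). The spike-in scale gave -0.33 and -0.52, both called (limma adjusted p = 0.00103 and 4.71e-05). With the filter at the 60th percentile the difference in M202 was called as well (limma adjusted p = 0.0494). The difference in M202(Sub1) was also called without replicate 2 of the non-submerged plants (-0.18; limma adjusted p = 0.0406), with the filter at the 60th percentile (-0.13; limma adjusted p = 0.0484) and after quantile normalization (-0.13; limma adjusted p = 0.0155).

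The PIP2 subgroup held further deep falls, and 3 of its genes are neighbours. In the gene order of assembly ASM3414082v1, PIP2-4, a pseudogene, PIP2-5 and PIP2-1 follow each other on chromosome 7. PIP2-4 fell in both genotypes, PIP2-5 in M202, and PIP2-1 moved little.

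PIP2-4, a PIP2 channel gene whose rice protein also lets arsenite through, had 9.53 and 9.64 in non-submerged M202 and 3.53 and 4.23 after submergence. The corresponding M202(Sub1) values were 8.90 and 8.89, and 3.53 and 3.05. It fell in both genotypes to within 1.66 and 1.07 of the floor on average, so the true decrease may be larger than measured. The changes were -5.70 ± 0.28 in M202 (limma adjusted p = 6.73e-05), a 52.1-fold decrease, and -5.61 ± 0.28 in M202(Sub1) (limma adjusted p = 5.56e-05), a 48.8-fold decrease.

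PIP2-5, the next protein-coding gene, read 7.11 and 7.08 in non-submerged M202 and 4.33 and 4.10 in submerged M202. In M202(Sub1) it read 6.88 and 7.03 before submergence and 7.36 and 7.27 after. Submerged M202 stood alone below the other 3 groups, whose 6 arrays lay between 6.88 and 7.36. The change in M202 was -2.88 ± 0.10 (limma adjusted p = 2.65e-05), a 7.37-fold decrease. PIP2-5 was read by 1 probe set. Its submerged M202 values of 4.33 and 4.10 lay not far above the floor of 2.22, so the true decrease may be larger than measured. The same limit applies to the PIP2-5 differences between the genotypes given below that use submerged M202.

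In M202(Sub1) the change of PIP2-5 was 0.35 ± 0.10 (limma adjusted p = 0.0397; 95% interval 0.09 to 0.62). This small rise was lost when any of 6 of the 8 arrays was left out, namely either array of non-submerged M202 and any array of M202(Sub1) (limma adjusted p = 0.0565 to 0.156). It was also lost with no filter on dim probe sets (0.35; limma adjusted p = 0.0679) and after quantile normalization (0.25; limma adjusted p = 0.143), and on the spike-in scale it was -0.03 (limma adjusted p = 0.854). The spike-in scale takes the same amount from every probe set in a comparison, and the sign of the PIP2-5 change in M202(Sub1) was not determined there.

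PIP2-1, the last gene of the row and a PIP2 water channel, was read by 3 probe sets that did not move alike. The first (a), whose ID ends in S1_a_at, had 13.04 and 13.12 against 12.79 and 12.49 in M202, and 13.17 and 12.94 against 12.88 and 12.81 in M202(Sub1). The second (b), whose ID ends in S1_x_at, had 13.49 and 13.52 against 13.16 and 12.93, and 13.50 and 13.40 against 13.20 and 13.13. Both were slightly lower on submerged arrays of each genotype. By the array maker's naming, x marks a probe set in which some probes also match other transcripts. Probe set b fell by 0.46 ± 0.08 in M202 (limma adjusted p = 0.00792) and by 0.29 ± 0.08 in M202(Sub1) (limma adjusted p = 0.0381). Probe set a fell by 0.44 ± 0.13 in M202 (limma adjusted p = 0.0432) while its M202(Sub1) value was -0.21 ± 0.13 (limma adjusted p = 0.253).

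These PIP2-1 calls were weak. Probe set a was not called in M202 when any array other than replicate 1 of submerged M202 was left out (limma adjusted p = 0.0553 to 0.174) or with no filter on dim probe sets (limma adjusted p = 0.0935). Probe set b was not called in M202(Sub1) without any of 6 arrays, those other than the submerged M202 ones (limma adjusted p = 0.0768 to 0.163), or with no filter (limma adjusted p = 0.0808). On the spike-in scale probe set a was called in M202(Sub1), at -0.60 (limma adjusted p = 0.000231).

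The third probe set of PIP2-1 (c), whose ID ends in S2_at, was dim and differed in direction from the others in M202. It had 4.53 and 4.47 against 5.33 and 4.78 in M202, and 4.39 and 4.39 against 4.20 and 4.26 in M202(Sub1). The change in M202 was 0.55 ± 0.18 (limma adjusted p = 0.066), and without either submerged M202 array it was called, at 0.28 and 0.83 (limma adjusted p = 0.0293 and 0.00162), as it was with the filter at the 60th percentile (limma adjusted p = 0.0296). The M202(Sub1) change was -0.16 ± 0.18 (limma adjusted p = 0.534), and -0.55 on the spike-in scale (limma adjusted p = 0.0226).

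PIP2-2, a PIP2 gene on chromosome 2, fell strongly in both genotypes on both of its probe sets. Probe set a, with an ID ending in s_at, the kind whose probes match more than 1 transcript, went from 14.69 and 14.77 to 11.85 and 11.50 in M202 and from 14.72 and 14.69 to 11.48 and 11.53 in M202(Sub1). Probe set b went from 7.89 and 7.89 to 4.42 and 3.74, and from 7.88 and 7.33 to 4.36 and 3.87. The submerged arrays of both genotypes overlapped on each probe set. Probe set a fell by 3.05 ± 0.12 in M202 (limma adjusted p = 3.21e-05) and fell by 3.20 ± 0.12 in M202(Sub1) (limma adjusted p = 2.11e-05). Probe set b had -3.81 ± 0.32 and -3.49 ± 0.32 (limma adjusted p = 0.000474 and 0.000521). PIP2-2 thus had decreases of 8.28-fold to 14.0-fold on the 2 probe sets. Submerged means of probe set b lay 1.86 above the floor in M202 and 1.90 in M202(Sub1), so its true decrease may be larger than measured.

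PIP2-7, whose rice protein also lets arsenite through, had 13.67 and 13.80 in non-submerged M202 and 11.93 and 11.71 after submergence. On the M202(Sub1) arrays it had 13.95 and 13.56 before and 12.13 and 11.86 after. The genotypes overlapped in both conditions. The change was -1.92 ± 0.17 in M202 (limma adjusted p = 0.000566), a 3.78-fold decrease, and -1.76 ± 0.17 in M202(Sub1) (limma adjusted p = 0.000626), a 3.39-fold decrease.

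PIP2-6, another channel gene of the PIP2 subgroup, went the other way. It had 13.34 and 13.31 in non-submerged M202 and 14.07 and 14.01 in submerged M202. The M202(Sub1) arrays had 13.40 and 13.38 before and 14.07 and 13.96 after, so all submerged arrays stood above all non-submerged ones. The rise was 0.71 ± 0.05 in M202 (limma adjusted p = 0.000172) and 0.62 ± 0.05 in M202(Sub1) (limma adjusted p = 0.000217). On the spike-in scale the rises were 0.51 and 0.24, and both were still called (limma adjusted p = 0.000154 and 0.00885).

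**Figure D2:**
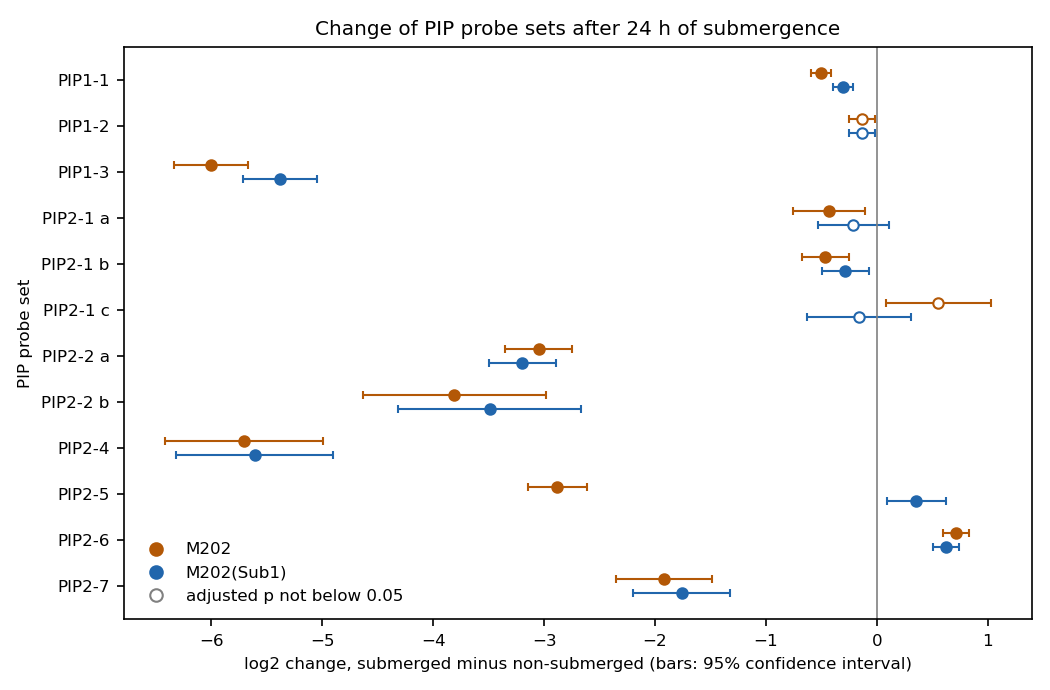
Log2 change with submergence (horizontal axis, submerged minus non-submerged) of the 12 PIP probe sets in M202 (orange) and M202(Sub1) (blue), with 95% confidence intervals from the limma fit. Open circles are changes whose adjusted p was not below 0.05. The 2 genotypes lie side by side for most probe sets, and PIP2-5 is at -2.88 in M202 and 0.35 in M202(Sub1).

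Whether the response itself differed between the genotypes was tested by the interaction, the change in M202(Sub1) minus the change in M202. Among the 12 PIP probe sets 1 was called, where 12.3% of all probe sets were, 6.36% as higher and 5.93% as lower, so the PIP count lies near the background. That probe set was PIP2-5, with an interaction of 3.24 ± 0.15 (95% interval 2.86 to 3.61; limma adjusted p = 0.00108), and it stayed between 3.05 and 3.35 under all 14 alternatives, with an adjusted p of at most 0.00622. An interaction called higher with a fold of 2 or more was found for 1.4% of all probe sets.

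For the other 11 PIP probe sets the interaction ran from -0.72 to 0.62. PIP1-3 had 0.62 ± 0.18 (limma adjusted p = 0.102; 95% interval 0.15 to 1.09) and was called without either array of submerged M202(Sub1), its most variable pair, at 0.82 and 0.42 with the SE down to 0.03 (limma adjusted p = 0.00154 and 0.00763), and with the filter at the 60th percentile (limma adjusted p = 0.0441). Probe set c of PIP2-1 had -0.72 ± 0.26 (limma adjusted p = 0.162). It was called without either submerged M202 array, at -0.44 and -0.99 (limma adjusted p = 0.0475 and 0.0108), and on the spike-in scale, at -0.90 (limma adjusted p = 0.0498). For PIP2-4 the interval of the interaction was wide, -0.91 to 1.10, while for PIP2-6 it was -0.25 to 0.07. Missing the threshold does not show that the genotypes responded alike.

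**Figure D3:**
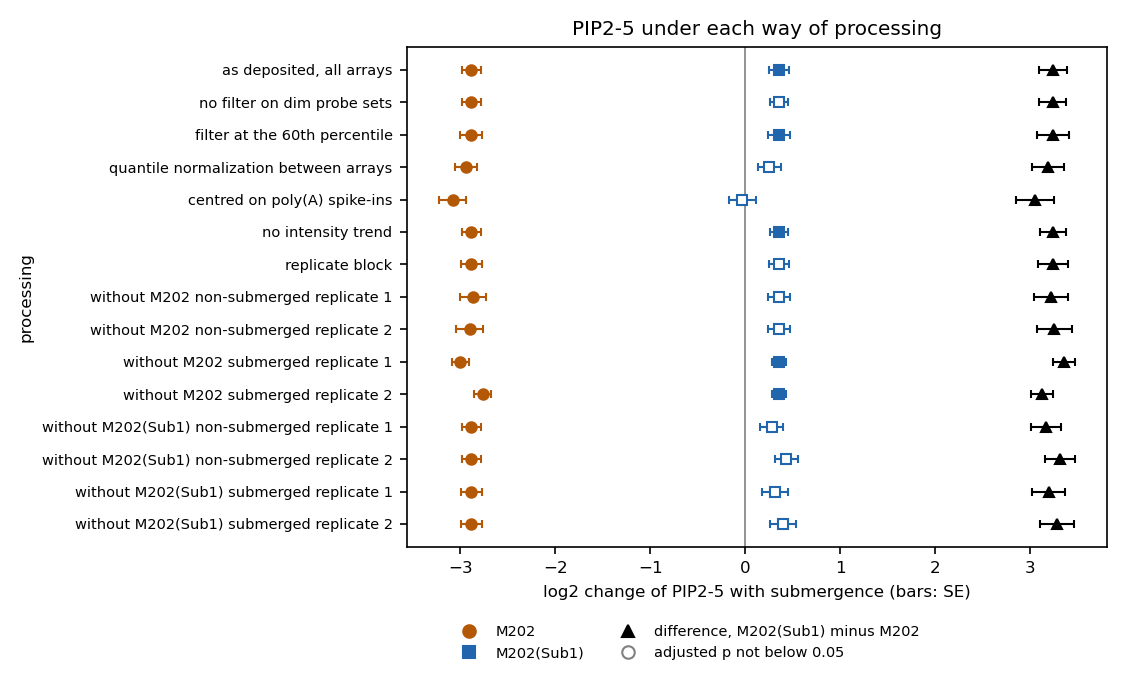
Log2 change of PIP2-5 with submergence (horizontal axis, bars are SE) in M202 (orange circles), in M202(Sub1) (blue squares) and their difference (black triangles), under each way of processing listed on the vertical axis. Open symbols have an adjusted p not below 0.05. The difference stays between 3.05 and 3.35, while the change in M202(Sub1) lies between -0.03 and 0.43.

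Direct comparison of the genotypes gave few PIP differences before submergence. Of 12 probe sets 1 was called, against 1.91% of all probe sets, 0.684% as higher and 1.23% as lower. On 7 of the 12 PIP probe sets the genotypes did not overlap, as on 34.5% of all. PIP1-1 was 0.36 ± 0.04 lower on the log2 scale in M202(Sub1) than in M202 (change of -0.36; limma adjusted p = 0.0147). It was not called without replicate 1 of non-submerged M202 or either array of submerged M202 (limma adjusted p = 0.0527 to 0.0557). PIP1-3 had a larger difference of -0.71 ± 0.13 that was not called (limma adjusted p = 0.0967), and was called without either array of submerged M202(Sub1) (limma adjusted p = 0.00236 and 0.0024), with the filter at the 60th percentile (limma adjusted p = 0.0317) and on the spike-in scale, at -0.77 (limma adjusted p = 0.0065). PIP2-4 had -0.69 ± 0.28 (limma adjusted p = 0.447; 95% interval -1.40 to 0.02).

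After submergence 3 of the 12 PIP probe sets differed between the genotypes, 1 higher and 2 lower in M202(Sub1), against 20.7% of all probe sets, 10.6% as higher and 10.1% as lower. The groups did not overlap on 4 PIP probe sets and on 50.3% of all. PIP2-5 was higher in M202(Sub1) by 3.10 ± 0.10 (limma adjusted p = 0.000162), an 8.55-fold difference. PIP1-1 was lower, with -0.16 ± 0.04 (limma adjusted p = 0.0325), and of the 8 fits with 1 array left out it was called in 1, that without replicate 2 of submerged M202(Sub1) (limma adjusted p = 0.0611 to 0.109 in the others). Its call was also lost with no filter and after quantile normalization (limma adjusted p = 0.0642 and 0.0522). Probe set c of PIP2-1 was lower, with -0.83 ± 0.18 (limma adjusted p = 0.0357), and was called in 2 of those 8 fits, those without a submerged M202 array (limma adjusted p = 0.0802 to 0.135 in the others), and not with no filter (limma adjusted p = 0.0834).

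Among probe sets without a call, PIP1-3 had -0.09 and was called without replicate 2 of submerged M202(Sub1), at -0.29 (limma adjusted p = 0.00638). Probe set a of PIP2-2 had -0.17 and was called without replicate 2 of submerged M202, at -0.35 (limma adjusted p = 0.0222).

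The scale mattered for this comparison. On the spike-in scale 1 PIP probe set was higher and 7 were lower in submerged M202(Sub1), where the median of all probe sets was -0.24 and 39.7% of them were lower and 4.85% higher. PIP2-7 is the member on chromosome 9, which also carries the SUB1 region, but whether it lies near that region was not examined. It had a genotype difference of 0.02 before submergence (95% interval -0.42 to 0.45) and 0.18 after it (-0.26 to 0.61), neither of them called (limma adjusted p = 1 and 0.574).

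The order of the 4 groups followed from these values. For PIP1-3, PIP2-2 and PIP2-4, both non-submerged groups stood above both submerged ones, and the submerged groups overlapped each other. Among non-submerged plants M202 stood above M202(Sub1) on the PIP1-3 and PIP2-4 probe sets and, narrowly, on probe set b of PIP2-2, but none of these differences was called (limma adjusted p = 0.0967, 0.447 and 0.816). The genotypes overlapped on probe set a of PIP2-2. For PIP2-6 both submerged groups stood above both non-submerged ones and overlapped each other. For PIP2-5 the order was submerged M202(Sub1), non-submerged M202, non-submerged M202(Sub1) and submerged M202, and no neighbours in that order overlapped, although the genotypes differed by only 0.14 before submergence (limma adjusted p = 0.657).

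The other aquaporins of the list, TIPs of the vacuole membrane, NIPs that carry small solutes such as silicic acid, SIPs of inner membranes and PIP2-8, had 16 of 24 names with a probe set. Of these, 12 genes with 13 probe sets passed the filter, and PIP2-8 was at the floor on all arrays. In M202 7 of the 13 rose, 4 fell and 2 were not called, with a median of 0.20. In M202(Sub1) 6 rose, 6 fell and 1 was not called, with a median of 0. Among all probe sets 22.9% rose and 20% fell in M202, and 27.7% rose and 21.2% fell in M202(Sub1).

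Of the 8 TIP probe sets 6 were higher and 1 was lower in each genotype, a balance not tested against that of the PIPs. The higher shares of all probe sets were 22.9% in M202 and 27.7% in M202(Sub1). On the spike-in scale, 5 of the 13 rose and 5 fell in M202, and 4 rose and 7 fell in M202(Sub1). There 18.4% of all probe sets rose and 40.5% fell in M202, and 18.8% rose and 60% fell in M202(Sub1). TIP4-2 rose by 1.79 ± 0.31 in M202 (limma adjusted p = 0.00734) and by 2.13 ± 0.31 in M202(Sub1) (limma adjusted p = 0.0032). Its probe set was dim, with group means of 4.39 and 6.18 in M202 and 3.40 and 5.52 in M202(Sub1), and is of the x kind. TIP4-1 rose by 1.01 ± 0.04 in M202, from 13.20 to 14.21 (limma adjusted p = 3.05e-05). TIP3-1, also dim, rose by 1.07 ± 0.19 in M202(Sub1), from 3.87 to 4.94 (limma adjusted p = 0.00652). Its probe set is of the s kind, so for TIP4-2 and TIP3-1 other transcripts may share in the signal. TIP1-2 had -9.83 ± 0.25 in M202 and -10.20 ± 0.25 in M202(Sub1), with submerged group means of 4.22 and 3.69 (limma adjusted p = 1.01e-05 and 7.32e-06). SIP2-1 had -2.20 ± 0.12 and -1.98 ± 0.12 (limma adjusted p = 0.000115 and 0.000129).

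In the interaction 4 of these 13 probe sets were lower and 0 higher (limma), where 5.93% of all probe sets were lower and 6.36% higher. The spike-in scale gave 6 lower and 0 higher, where 11.8% of all were lower and 3.4% higher. None was thus called in the direction of PIP2-5. The 4 lower ones were chosen for naming after their values were seen. NIP2-2 had -1.27 ± 0.13 and NIP2-1, the silicon channel gene LSI1, had -0.76 ± 0.06 (limma adjusted p = 0.00707 and 0.00361). The NIP2-2 probe set is of the x kind, in which some probes also match other transcripts. TIP4-1 had -0.49 ± 0.05 and NIP1-1 had -0.46 ± 0.09 (limma adjusted p = 0.00867 and 0.0327).

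**Figure D4:**
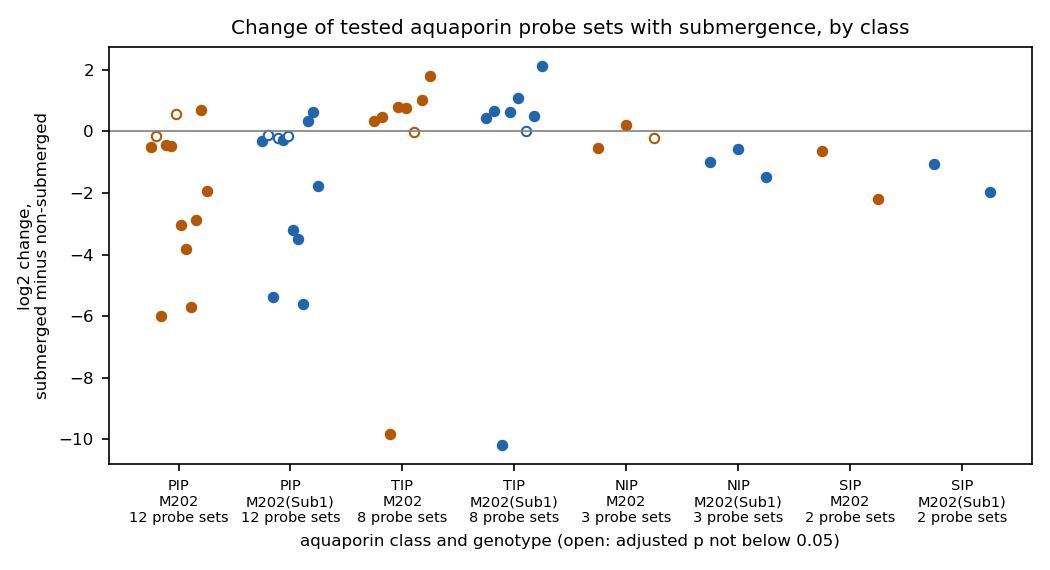
Log2 change with submergence (vertical axis) of every tested aquaporin probe set, by class and genotype (horizontal axis, M202 in orange, M202(Sub1) in blue). Open circles have an adjusted p not below 0.05. Most PIP probe sets lie below 0, and 6 of 8 TIP probe sets were called higher in each genotype.

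Genes with the most similar pattern were looked up for the 6 PIP probe sets whose group means spanned at least 1 log2 unit, among 2035 named genes outside the aquaporins. Likeness was the Euclidean distance, in log2 units over the 8 arrays, between values centred on each probe set's mean. For PIP1-3 the nearest were CYP71Z6, a cytochrome P450 gene, at 0.79, PP2C30, a protein phosphatase 2C, at 0.80, and HSP18.1, a small heat shock protein gene, at 0.82. For PIP2-4 they were again PP2C30, at 0.79, CYP71Z6, at 1.08, and HSP18.1, at 1.17. PIP1-3 and PIP2-4 thus had the same 3 nearest genes. The distance is not scaled by the size of the change, so probe sets with falls of like size tend to share near genes. In submerged M202 and M202(Sub1), CYP71Z6 had group means of 2.28 and 2.22 and PP2C30 had 2.93 and 2.71. Both lay near the floor of 2.22, so their true falls may be larger than measured.

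The distances were smaller for the milder falls, but they were not scaled by the size of the change and tend to grow with it. For PIP2-7 the nearest were PSY1, a phytoene synthase of carotenoid synthesis, at 0.34, GLN2, the chloroplast glutamine synthetase, at 0.35, and PSY2, a second phytoene synthase, at 0.36. For probe set a of PIP2-2 they were RK4, a protein kinase gene also named SAPK7, at 0.25, SPS2 at 0.30 and PPT3 at 0.37, and for probe set b MYBS2, a MYB factor gene, at 0.62, CYP701A8, a cytochrome P450 gene, at 0.68, and DI1 at 0.68.

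PIP2-5 had no match as close. Its nearest genes were Cht2, a chitinase, at 1.16, TPP1, a trehalose phosphate phosphatase, at 1.44, and CIPK12, a protein kinase that works with calcium sensors, at 1.58. Cht2 had group means of 9.41 in non-submerged and 7.13 in submerged M202, and 9.20 and 9.12 in M202(Sub1). TPP1 had 9.08 and 7.38 in M202, and 8.88 and 9.65 in M202(Sub1). These distances describe 8 arrays of 4 groups that all share 1 normalization.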

How the data were processed

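The authors deposited a table of log2 expression levels. For its making, GCRMA and MAS5 are named, without version or role, per the submitters' processing notes. The values ran down to a floor of 2.22, which held 37.2% to 38.8% of each array, with no missing value. Arrays have no read depth, and 2 per group limit the precision.

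Probe sets were named through the platform annotation and the RefSeq table (symbol or synonym); 1 probe set paired with PIP2-1 and PIP2-5 was left out. The 123 control probe sets were not tested. limma 3.58.1 in R 4.3.3 was fitted to probe sets with a mean at or above the 40th percentile, with Benjamini-Hochberg adjustment over all. The fit used 1 coefficient per group, all 8 arrays and eBayes with trend, with 4 residual and 0.99 prior degrees of freedom. It was also run on simulated data, drawn without a floor and with far fewer changes. That run does not test the calls given here. Tables and figures used Python 3.11.15 with pandas 2.3.3. An exact test of 2 against 2 arrays cannot pass the threshold, so none was run.

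Every PIP probe set was named, with at most 2 rises and 2 falls of other aquaporins per submergence contrast and the 3 most similar genes. Because only 74 candidate genes had a formal symbol, synonyms were accepted there too, a choice made after the data were seen. The poly(A) centring used the median deviation of 36 probe sets. The members and lists were chosen with earlier results of these data known. Promoter and protein sequences were not used here.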

Additional observations from a re-analysis of the deposited data

Results flagged for a closer look

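The response of PIP2-5 to submergence differed between the genotypes by 3.24 (log2; limma adjusted p = 0.00108), as tested by the interaction. Groups of 2 arrays are too small to look for single outlying samples.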

How the results depend on the processing

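The 11 falls of at least 2-fold with submergence were called in the same direction under all 14 alternatives each. Over 60 combinations of probe set and comparison with 840 alternative values, 46 lost their call, 27 gained one and 2 turned sign, both under poly(A) centring, which shifts all probe sets alike. These were PIP2-5 in M202(Sub1), at -0.0303 and no longer called, and PIP1-2 between genotypes after submergence, at -0.22 and called there but not on the deposited scale. A further 35 uncalled values changed sign.

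Calls of PIP probe sets between genotypes before submergence, 1 of 12, became 2 with the filter at the 60th percentile, 2 under poly(A) centring and 0 to 2 with 1 array left out. After submergence the 3 calls became 1 with no filter, 8 under poly(A) centring and 1 to 3 with 1 array left out. The 1 interaction call became 2 with the filter at the 60th percentile, 2 under poly(A) centring and 1 to 2 with 1 array left out. The cause was not tested. With the replicate number as a block the PIP calls were 0 between genotypes before submergence and 1 after it, and PIP2-5 in M202(Sub1) was not called (limma adjusted p = 0.0635). The numbers gave little pairing, since deviations of equally numbered arrays correlated at 0.008 to 0.178.

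Over all probe sets, poly(A) centring changed calls from 16808 to 27085 for submergence in M202(Sub1) and from 7123 to 15299 between genotypes after submergence. It changed the share of higher calls from 53.46% to 31.25% for submergence in M202, 56.62% to 23.89% in M202(Sub1), 35.77% to 23.65% between genotypes before and 51.07% to 10.89% after submergence, and 51.76% to 22.28% in the interaction. Interaction calls were 4223, and 2650 with no filter. Genotype calls before submergence were 657, and 395 to 1769 with 1 array left out.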
